A study of Mus musculus with 42 samples.

Results

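The 31 genes described here are known targets of the transcription factor ATF4 or belong to serine, one-carbon, asparagine and proline synthesis, and were measured in kidneys of mice that lack Tsc2, Tfeb or both. They are given by gene symbol, from a list drawn up with earlier results of these data known. The 31 symbols matched 32 of the 54532 gene rows, because Ddit3 has 2 rows. The second Ddit3 row, whose 105 bases lie within exons of the first, was listed at 0 in every library and was not tested, so 31 of the 32 rows entered each test. Every member is listed on GRCm38 as a protein-coding gene.

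Polyadenylated RNA from pieces of whole kidney was sequenced without strand information in 42 mice of a C57BL/6 background, which made 14 groups of 3 mice in 3 cohorts. The CaggCreERT2 cohort, labelled Cagg-Cre, was collected at postnatal day 30 and held controls, Tsc2 KO, Tfeb KO and Tsc2+Tfeb DKO mice, all exposed to tamoxifen through the milk of treated mothers. CaggCreERT2 is a Cre active in the whole body after tamoxifen, and by the study's description of the transcriptome comparison its controls carried the Cre without a floxed Tsc2. The KspCre cohort, labelled KSP-Cre, was collected at day 50 and held the same 4 genotypes. Its Cre is driven by the cadherin-16 promoter, which is active in tubule epithelium, and its controls were Cre-negative. The KspCre drug cohort, also collected at day 50, held controls, Tsc2 KO and DKO mice that were injected with vehicle or with rapamycin, at 1 mg/kg and 11 times in all, from day 25 on. Floxed Tsc2 and Tfeb alleles were recombined only where a Cre was active, so the kidneys of knockout mice could still hold unrecombined cells. In bulk tissue of this kind fewer cells of a type and less RNA per cell cannot be told apart.

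ATF4 is a basic leucine zipper transcription factor whose translation rises when the initiation factor eIF2α is phosphorylated, the branch point of the integrated stress response, and also when the kinase complex mTORC1 is active. Its targets import amino acids, charge tRNAs, make serine, glycine, asparagine and proline, and feed one-carbon units into the mitochondrial folate cycle for nucleotide synthesis. TSC2 restrains mTORC1, rapamycin inhibits it, and TFEB is a transcription factor of lysosomal genes whose place in the cell is set by mTORC1. The study measured one member, Mthfd2, by PCR as a readout of mTORC1 activity. ATF4 pairs with C/EBP proteins on a composite site called the C/EBP-ATF response element.

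The core of that site, TGATGNAA with N as any base, was searched on both strands of the RefSeq promoter windows of GRCm38.p6, which run from 250 bases before to 50 bases after each start. Of the 31 members 29 had a window, and Slc7a5 and Slc1a5 were the others. The core lay in the windows of 8 members (27.6% of 29), against 4.51% of 27025 genes with a window. The stricter form TGATGCAA, which is contained in the first motif, lay in those of 6 members (20.7%, against 1.03%). Many members were listed because they are known ATF4 targets, so these shares are a description and no independent test. The sites are shown because they place the best known ATF4 element beside the genes whose levels follow. Each is 30 bases read 5′ to 3′ on the strand of the gene, with the motif in capitals, and TTGCATCA is the same element read from the opposite strand.
Asns (chr6:7693214-7693243, minus strand, motif from base -23): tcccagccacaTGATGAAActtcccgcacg
Trib3 (chr2:152344028-152344057, minus strand, motif from base 15): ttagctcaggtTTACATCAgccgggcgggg
Chac1 (chr2:119351038-119351067, plus strand, motif from base -193): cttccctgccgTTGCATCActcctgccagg
Atf3 (chr1:191183425-191183454, minus strand, motif from base -110): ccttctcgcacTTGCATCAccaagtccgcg
Nupr1 (chr7:126625562-126625591, minus strand, motif from base -110): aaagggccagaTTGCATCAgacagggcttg
Slc7a11 (chr3:50443661-50443690, minus strand, motif from base -66): tctcatgtggcTGATGCAAacctggagaat
Slc7a11 (chr3:50443642-50443671, minus strand, motif from base -47): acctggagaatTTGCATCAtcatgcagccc
Pycr1 (chr11:120643833-120643862, minus strand, motif from base -103): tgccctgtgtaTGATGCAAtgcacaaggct
Slc1a4 (chr11:20332699-20332728, minus strand, motif from base -4): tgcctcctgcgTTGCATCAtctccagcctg
The 6 bases CACGTG, the palindromic E-box core that TFEB family factors bind, lay in the windows of 4 members (13.8%), against 8.09% of all genes. These were Aldh18a1, Gdf15, Nupr1 and Xpot. The first 3 are shown with the E-box in capitals, chosen because they rose with Tsc2 loss in all cohorts as described next. Xpot did not rise in any cohort, and most genes that rose in all cohorts had no such match.
Aldh18a1 (chr19:40588505-40588534, minus strand, motif from base -59): ggagggggccgcCACGTGgagcgtgggcgc
Gdf15 (chr8:70632161-70632190, minus strand, motif from base -83): cacagggcagggCACGTGtgagcatccagt
Nupr1 (chr7:126625678-126625707, minus strand, motif from base -225): gcgagagctttcCACGTGgaaaaacacagc
A match to these letters is a description of the window and does not show binding.

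Counted reads per library ranged from 16047699 to 20865587 in CaggCreERT2 mice, from 14926050 to 20541625 in untreated KspCre mice and from 15104557 to 22807605 in the drug cohort. Levels are given as FPKM, fragments scaled to the length of the gene and the depth of the library, so they can be set beside each other between genes. Tsc2 was at 8.18 to 10.6 FPKM in the control mice of all cohorts and at 3.54 to 4.55 in the Tsc2 KO mice without rapamycin. It was higher than in all of these in DKO mice (4.82 to 6.41) and in rapamycin-treated Tsc2 KO mice (5.06 to 6.5). Tfeb was at 1.99 to 4.09 FPKM in the DKO mice of all groups and at 3.89 to 8.02 in the controls, and within a cohort every DKO mouse lay below every control. In Tfeb KO mice Tfeb was at 2.73 to 3.73 FPKM in the CaggCreERT2 and 4.32 to 5.25 in the KspCre cohort. KspCre Tsc2 KO mice, with Tfeb intact, were at 3.96, 6.12 and 3.66 FPKM, so that they overlapped with the KspCre Tfeb KO mice and with DKO replicate 1 at 4.09. In the CaggCreERT2 cohort the names of 4 libraries conflict between the count and FPKM tables, 2 of them across genotypes, and the FPKM table's names are used here. The library that the count table names DKO and the FPKM table names Tfeb KO replicate 3 had Tsc2 at 10.2 FPKM, and the library named the other way round, DKO replicate 1 in the FPKM table, had it at 5.26. The first lies among the controls of that cohort (9.81 to 10.6) and the second among the other DKO mice (4.82 and 5.64), as the FPKM table's names have it. Defining markers of kidney were present, and 11 proximal tubule genes summed to 8500 to 13600 FPKM in the untreated and vehicle-treated controls. In KspCre DKO replicate 1 the 12 macrophage genes summed to 799 FPKM, against 78.9 and 106 in the other DKO mice of that cohort. T cell genes (45.6 against 3.3 and 8.06) and B cell genes (40.3 against 5.94 and 9.2) were also highest in that mouse.

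In Tsc2 KO kidneys most members were higher in the CaggCreERT2 and vehicle-treated KspCre cohorts, and fewer passed the test in the untreated KspCre cohort. A gene is said to have risen or fallen where the quasi-likelihood test of edgeR gave an adjusted p no higher than 0.05, with the adjustment of Benjamini and Hochberg made across all genes tested. Of 31 members tested, 22 rose and 2 fell in CaggCreERT2 Tsc2 KO kidneys, where 15.6% of all genes tested rose and 13.4% fell. In the KspCre cohort 12 rose and 1 fell, where 7.64% and 6.21% of all genes did. In the vehicle-treated KspCre mice 19 rose and 3 fell, where 19.4% and 18.9% of all genes did. The median log2 fold change of the members was 1.26, 0.69 and 1.16 in these comparisons, and that of all genes tested was 0.00, -0.01 and 0.01. The 12 genes that rose in all cohorts were Aldh18a1, Asns, Atf3, Ddit3, Ddit4, Gdf15, Mthfd1l, Mthfd2, Nupr1, Psat1, Psph and Trib3. A further 7 rose in CaggCreERT2 and vehicle-treated KspCre mice but did not pass the test in the untreated KspCre cohort, namely Atf4, Chac1, Phgdh, Sesn2, Slc38a2, Slc7a1 and Slc7a5. That the effects differ between cohorts was not tested. Shmt2 was the only member that fell in all 3. In the KspCre cohort the count of 13 calls was 8 without control replicate 2. Under the count table's names the CaggCreERT2 calls of Atf3, Ddit4 and Psph were lost.

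**Figure D1:**
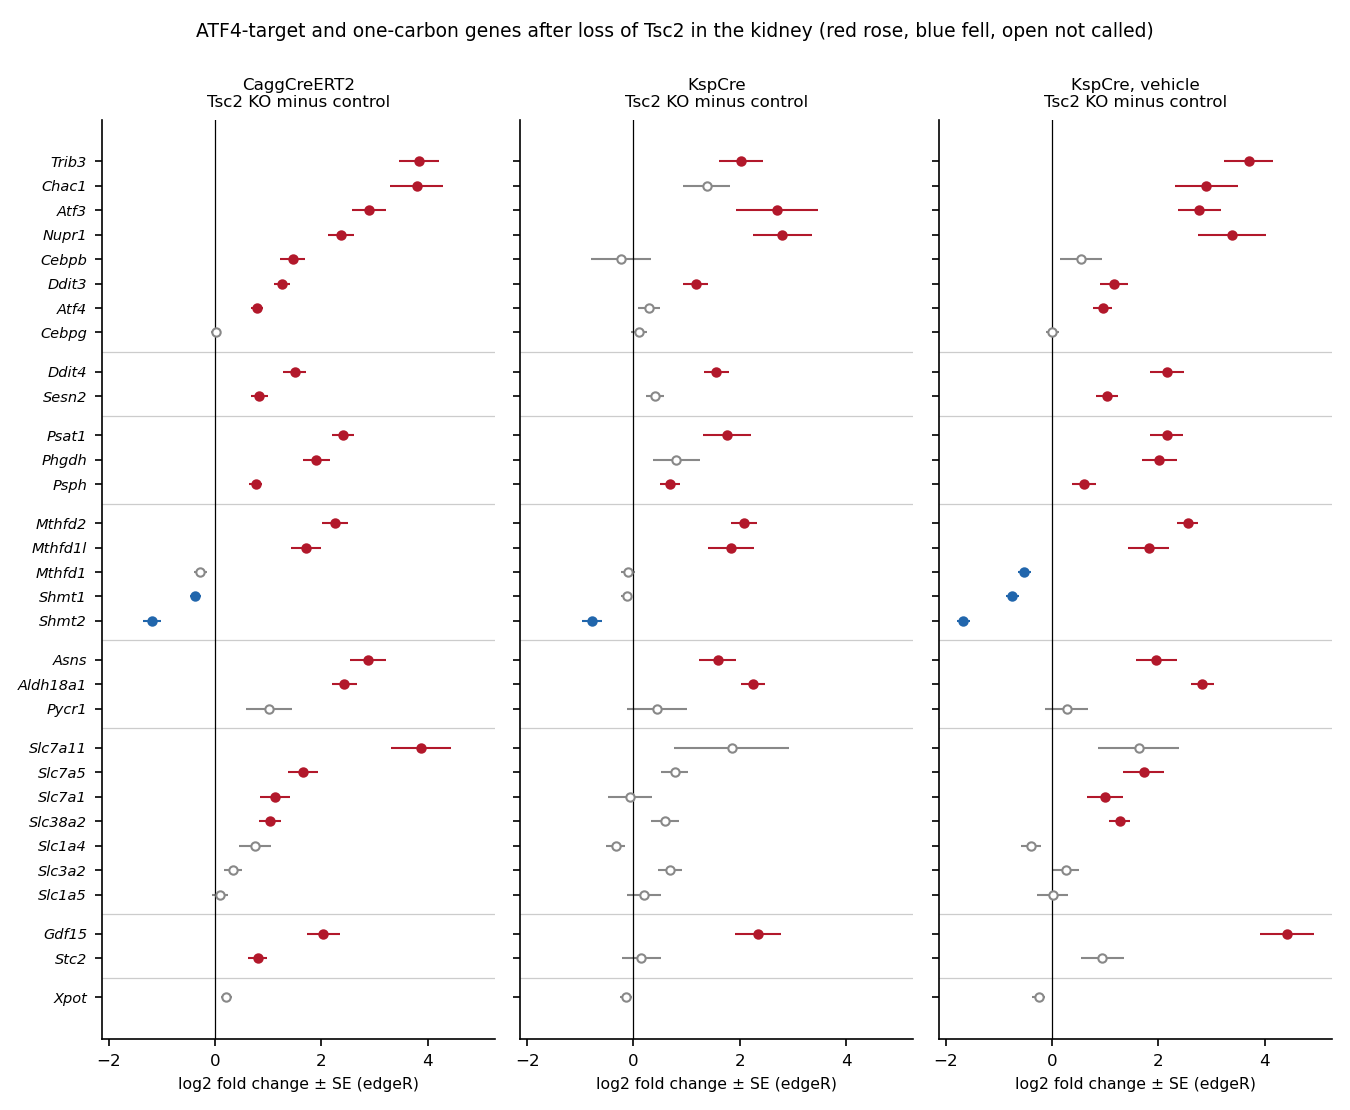
Fitted log2 fold changes of the members, with standard errors, for Tsc2 KO against control kidneys in 3 cohorts of 3 mice a group. Filled red points rose, filled blue points fell and open points did not pass the test, and grey lines separate the roles from regulators at the top to tRNA export at the bottom. Most regulators, serine enzymes and Mthfd2 lie to the right of 0 in each panel, and Shmt2 lies to the left.

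Among the regulators 7 of 8 rose in CaggCreERT2 mice, 4 in KspCre mice and 6 in vehicle-treated mice. The shares of all genes that rose were 15.6%, 7.64% and 19.4%. Trib3 (ENSMUSG00000032715, chr2:152337422-152344032) encodes a pseudokinase that is a classical ATF4 target. Trib3 was at 0.494, 0.552 and 0.803 FPKM in CaggCreERT2 controls and at 9.46, 11.6 and 4.31 in Tsc2 KO mice. KspCre mice had Trib3 at 0.512, 0.394 and 0.995 FPKM in controls and 2.29, 2.9 and 2.59 in Tsc2 KO, and with vehicle at 0.519, 0.274 and 0.348 in controls and 7.23, 3.69 and 4.13 in Tsc2 KO. The ranges did not overlap in any cohort, and the log2 fold changes were 3.83 ± 0.38, adjusted p = 2.46e-05 in CaggCreERT2, 2.02 ± 0.41, adjusted p = 0.00772 in KspCre and 3.7 ± 0.46, adjusted p = 1.38e-05 in vehicle-treated mice, each ± SE. Chac1, a glutathione-degrading enzyme, was at 0.142, 0.374 and 0.486 FPKM in CaggCreERT2 controls and 4.44, 7.04 and 2.06 in Tsc2 KO mice. In KspCre mice Chac1 stood at 0.704, 0.827 and 1.19 FPKM in controls and 2.77, 2.58 and 1.77 in Tsc2 KO. Vehicle-treated mice had Chac1 at 0.898, 0.284 and 0.188 FPKM in controls and 3.68, 3.44 and 3.35 in Tsc2 KO. Chac1 was low in controls, its ranges were separate in each cohort, and its log2 fold change was 3.79 ± 0.50, adjusted p = 0.000183 in CaggCreERT2, 1.38 ± 0.44, adjusted p = 0.061 in KspCre and 2.9 ± 0.59, adjusted p = 0.00108 with vehicle.

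Atf4 itself (ENSMUSG00000042406, chr15:80255184-80257541) had smaller log2 fold changes than these targets. Atf4 was at 36.2, 42.5 and 35.9 FPKM in CaggCreERT2 controls and 68.9, 63.8 and 58 in Tsc2 KO mice. KspCre mice had Atf4 at 45.8, 34.8 and 26.3 FPKM in controls and 51, 38.9 and 41.2 in Tsc2 KO, which overlap. With vehicle Atf4 was at 39, 19.7 and 28.2 FPKM in controls and 63.2, 50.05 and 54.9 in Tsc2 KO. Its log2 fold change was 0.80 ± 0.11, adjusted p = 0.000277 in CaggCreERT2, 0.29 ± 0.20, adjusted p = 0.39 in KspCre and 0.95 ± 0.17, adjusted p = 0.000436 in vehicle-treated mice. These are levels of mRNA, and ATF4 protein was not measured here.

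Ddit3 (ENSMUSG00000025408, chr10:127290774-127296288) encodes CHOP, the pro-apoptotic factor downstream of ATF4. Ddit3 was at 6.57, 6.55 and 6.57 FPKM in CaggCreERT2 controls and 15, 16.3 and 14 in Tsc2 KO mice. KspCre mice had Ddit3 at 7.81, 4.7 and 5.33 FPKM in controls and 14.8, 12.9 and 12.5 in Tsc2 KO, and with vehicle at 5.36, 5.94 and 4.89 in controls and 12.5, 10.9 and 12.6 in Tsc2 KO. Every Tsc2 KO mouse lay above every control of its cohort, with log2 fold changes of 1.26 ± 0.16, adjusted p = 0.000119, 1.17 ± 0.23, adjusted p = 0.00673 and 1.16 ± 0.26, adjusted p = 0.00227 in the same order. Its exons share 68 bases with Mars on the other strand, and without strand information reads there cannot be told apart. Atf3, a stress-induced repressor, was at 0.866, 1.45 and 0.66 FPKM in CaggCreERT2 controls and 8.43, 7.4 and 5.57 in Tsc2 KO mice. KspCre mice had Atf3 at 1.07, 0.928 and 0.336 FPKM in controls and 6.07, 4.47 and 4.62 in Tsc2 KO, and with vehicle at 1.27, 1.03 and 0.658 in controls and 5.12, 7.5 and 7.59 in Tsc2 KO. Atf3 rose in each cohort (2.9 ± 0.32, adjusted p = 5.38e-05, 2.7 ± 0.77, adjusted p = 0.0368 and 2.77 ± 0.41, adjusted p = 6.17e-05), although its call in the KspCre cohort was lost whichever of the 6 libraries was left out.

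Nupr1, a small chromatin protein of the stress response, was at 8.9, 8.67 and 11.3 FPKM in CaggCreERT2 controls and 53.3, 56.1 and 33.4 in Tsc2 KO mice. KspCre mice had Nupr1 at 5.2, 9.95 and 14.1 FPKM in controls and 69.3, 93.8 and 41.6 in Tsc2 KO, and with vehicle at 6.49, 17.6 and 3.09 in controls and 95.7, 97 and 90.6 in Tsc2 KO. All Tsc2 KO values exceeded all control values within a cohort, and the log2 fold changes were 2.37 ± 0.24, adjusted p = 3.54e-05, 2.8 ± 0.55, adjusted p = 0.0065 and 3.38 ± 0.65, adjusted p = 0.000619. Cebpb, the C/EBP partner of ATF4, rose in the CaggCreERT2 cohort alone (1.46 ± 0.23, adjusted p = 0.000685), where controls were at 15.3, 9.2 and 8.43 FPKM and Tsc2 KO mice at 28.4, 28.5 and 29.3. In the KspCre cohort Cebpb ranged widely within groups, from 10.4 to 52.6 FPKM in controls and from 12.8 to 39.5 in Tsc2 KO mice. Its exon shares 312 bases with Tmem189 on the other strand. Cebpg, the other C/EBP partner, did not pass the test in any cohort, with log2 fold changes of 0.01 ± 0.09, 0.11 ± 0.15 and 0.01 ± 0.11.

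Of the 2 members that inhibit mTORC1, Ddit4 rose in all cohorts and Sesn2 did not pass the test in the untreated KspCre cohort. Ddit4 (ENSMUSG00000020108, chr10:59949669-59951834) encodes REDD1, which acts through the TSC complex. Ddit4 was at 15.2, 13.6 and 16.1 FPKM in CaggCreERT2 controls and 41.4, 52.7 and 27.4 in Tsc2 KO mice. KspCre mice had Ddit4 at 18.2, 10.3 and 9.83 FPKM in controls and 39.5, 40.1 and 33.2 in Tsc2 KO, and with vehicle at 15.1, 7.82 and 10.2 in controls and 52.9, 50.8 and 45.1 in Tsc2 KO. The differences of Ddit4 were 1.5 ± 0.22, adjusted p = 0.000366, 1.56 ± 0.24, adjusted p = 0.00164 and 2.17 ± 0.32, adjusted p = 6.5e-05 on the log2 scale. Sesn2, a leucine sensor that restrains mTORC1, was at 14.6, 14.6 and 11.6 FPKM in CaggCreERT2 controls and 22.6, 28.9 and 18.2 in Tsc2 KO mice. KspCre mice had Sesn2 at 15.7, 19.1 and 20.00 FPKM in controls and 23.1, 26.7 and 22.9 in Tsc2 KO, and with vehicle at 11.2, 15 and 13.6 in controls and 31, 26 and 24.4 in Tsc2 KO. Sesn2 differed by 0.84 ± 0.16, adjusted p = 0.00253 in CaggCreERT2, 0.40 ± 0.18, adjusted p = 0.164 in KspCre and 1.03 ± 0.21, adjusted p = 0.00109 with vehicle.

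All 3 enzymes of serine synthesis from glycolysis rose in CaggCreERT2 and vehicle-treated mice, where 15.6% and 19.4% of all genes rose. Phgdh, which takes the first step, was at 20.2, 19.2 and 33.2 FPKM in CaggCreERT2 controls and 99.9, 104 and 57 in Tsc2 KO mice. KspCre mice had Phgdh at 7.78, 14.2 and 17.4 FPKM in controls and 26.6, 23.7 and 18.9 in Tsc2 KO, and with vehicle at 12.1, 7.23 and 8.11 in controls and 47.5, 26.5 and 36.9 in Tsc2 KO. The KspCre ranges were close without overlap, and the log2 fold changes were 1.91 ± 0.26, adjusted p = 0.000217, 0.81 ± 0.44, adjusted p = 0.271 and 2.02 ± 0.33, adjusted p = 0.000169. Psat1, the transaminase that follows, was at 6.52, 7.19 and 7.77 FPKM in CaggCreERT2 controls and 37, 48 and 24.6 in Tsc2 KO mice. KspCre mice had Psat1 at 7.33, 7.3 and 10.1 FPKM in controls and 25.4, 24 and 34.5 in Tsc2 KO, and with vehicle at 6.75, 8.56 and 5.87 in controls and 39.1, 22.1 and 33.5 in Tsc2 KO. Psat1 rose in all cohorts (2.41 ± 0.20, adjusted p = 9.68e-06, 1.76 ± 0.45, adjusted p = 0.0236 and 2.16 ± 0.31, adjusted p = 4.93e-05), and its KspCre call was lost without control replicate 1 or 2 or Tsc2 KO replicate 1 or 3.

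Psph, the phosphatase that releases serine, was at 5.44, 5.33 and 5.1 FPKM in CaggCreERT2 controls and 9.44, 9.11 and 7.25 in Tsc2 KO mice. KspCre mice had Psph at 3.55, 4.08 and 3.43 FPKM in controls and 6.55, 5.87 and 5.45 in Tsc2 KO, and with vehicle at 4.15, 4.09 and 3.53 in controls and 8.39, 3.7 and 5.84 in Tsc2 KO. Vehicle-treated groups overlapped, and the log2 fold changes were 0.77 ± 0.13, adjusted p = 0.000877, 0.69 ± 0.18, adjusted p = 0.0287 and 0.61 ± 0.22, adjusted p = 0.0416. In each KspCre cohort the Psph call was lost without 5 of the 6 libraries in turn. Its exons share 452 bases with a transcript of Cct6a on the other strand.

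The folate enzymes split by direction. Mthfd2 (ENSMUSG00000005667, chr6:83305691-83325908) and Mthfd1l, the mitochondrial dehydrogenase and formate-releasing synthetase, rose, and Shmt2, the mitochondrial enzyme that takes the one-carbon unit from serine, fell. Mthfd2 was at 2.31, 2.53 and 2.67 FPKM in CaggCreERT2 controls and 12.3, 15.1 and 7.08 in Tsc2 KO mice. KspCre mice had Mthfd2 at 1.16, 1.7 and 1.08 FPKM in controls and 4.93, 6.53 and 5.26 in Tsc2 KO, and with vehicle at 1.26, 1.2 and 1.36 in controls and 8.18, 7.3 and 6.86 in Tsc2 KO. Every Tsc2 KO mouse lay above every control of its cohort, by a fitted fold of 4.79, 4.23 and 5.84 (log2 fold changes of 2.26 ± 0.25, adjusted p = 5.16e-05, 2.08 ± 0.24, adjusted p = 0.000388 and 2.55 ± 0.19, adjusted p = 1.04e-07). Mthfd1l was at 1.2, 1.43 and 1.04 FPKM in CaggCreERT2 controls and 4.85, 4.21 and 2.4 in Tsc2 KO mice. KspCre mice had Mthfd1l at 1.01, 0.959 and 0.339 FPKM in controls and 2.89, 2.89 and 2.48 in Tsc2 KO, and with vehicle at 0.592, 0.918 and 0.653 in controls and 3.27, 1.8 and 2.6 in Tsc2 KO. It rose from a low level in all cohorts (1.71 ± 0.28, adjusted p = 0.000833, 1.84 ± 0.43, adjusted p = 0.0155 and 1.82 ± 0.39, adjusted p = 0.00149).

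Shmt2 (ENSMUSG00000025403, chr10:127517123-127522444) was at 76.3, 66.8 and 65.2 FPKM in CaggCreERT2 controls and 23.4, 29.6 and 35 in Tsc2 KO mice. KspCre mice had Shmt2 at 76.6, 69.4 and 61.4 FPKM in controls and 40.6, 31.1 and 49.9 in Tsc2 KO, and with vehicle at 63.7, 58 and 69.7 in controls and 19.5, 17.8 and 22.8 in Tsc2 KO. All Tsc2 KO mice lay below all controls of their cohort (-1.18 ± 0.17, adjusted p = 0.000372, -0.77 ± 0.19, adjusted p = 0.018 and -1.67 ± 0.12, adjusted p = 8.49e-08). The KspCre call was lost without control replicate 1 or 2 or Tsc2 KO replicate 1 or 2. Shmt1, the cytosolic counterpart, was at 33.4, 32.3 and 32.7 FPKM in CaggCreERT2 controls and 21.1, 25.2 and 26.6 in Tsc2 KO mice. KspCre mice had Shmt1 at 23.5, 26.8 and 27.5 FPKM in controls and 23.6, 22.5 and 25.4 in Tsc2 KO, and with vehicle at 32.7, 24.4 and 31.1 in controls and 17.8, 16.5 and 18.2 in Tsc2 KO. Shmt1 fell in 2 cohorts and not past the test in the untreated KspCre mice (-0.37 ± 0.10, adjusted p = 0.0171, -0.13 ± 0.11, adjusted p = 0.497 and -0.75 ± 0.13, adjusted p = 0.00022), and its exons share 184 bases with Smcr8. Its CaggCreERT2 call was lost without control replicate 1 or 3 or Tsc2 KO replicate 1, and with Xist as a covariate. Xist, which is transcribed from the inactive X chromosome of females, was higher in CaggCreERT2 Tsc2 KO mice than in controls (9.93 ± 3.06, adjusted p = 0.0286), so the sexes were not balanced between these groups. The 5 marker genes of sex, Xist and the Y-linked Ddx3y, Uty, Kdm5d and Eif2s3y, had a median log2 fold change of -1.53. In CaggCreERT2 DKO mice against controls their median was -0.62. Every member in these comparisons shares this limit. In each KspCre cohort only 1 of the 5 had enough counts to be tested. Mthfd1, the cytosolic trifunctional enzyme, fell in vehicle-treated mice (-0.52 ± 0.13, adjusted p = 0.00384) and did not pass the test in the others (-0.27 ± 0.12 and -0.10 ± 0.13).

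Markers of several kidney cell types were lower in the same libraries, as Shmt2 was. Of 11 proximal tubule genes 9 fell in CaggCreERT2, 8 in KspCre and 9 in vehicle-treated Tsc2 KO kidneys, and none rose. Their summed level ran from 955 to 4400 FPKM in CaggCreERT2 Tsc2 KO mice against 10900 to 12200 in controls, from 1490 to 2870 against 10800 to 13600 in KspCre mice, and from 629 to 1080 against 8500 to 13400 with vehicle. CaggCreERT2 Tsc2 KO replicate 3 stood apart at 4400, against 955 and 1430, and had the lowest proliferation sum of its group (34.7 against 75.6 and 75.3). In that mouse Trib3, Mthfd2, Aldh18a1 and Asns were the lowest of the group, and Shmt2 and Cebpb the highest. Podocyte genes fell in 6, 6 and 4 of 6 (median log2 fold change -1.45, -1.4 and -1.94), distal tubule and collecting duct genes in 8, 6 and 6 of 12, with 0, 1 and 1 rising, and endothelial genes in 1, 6 and 4 of 7. The part of these lists in the levels of Shmt2, Shmt1 and Mthfd1 was not tested. Of 12 macrophage genes 5, 1 and 11 rose in the same order, and 1 fell with vehicle. Their sums ran from 187 to 233 FPKM in CaggCreERT2 Tsc2 KO mice against 104 to 139 in controls, from 128 to 209 against 64.5 to 92.7 in KspCre mice, and from 138 to 227 against 51.3 to 68.6 with vehicle. Of 10 proliferation genes 4, 10 and 10 rose, and their part and that of the macrophage genes in the rise of the members was not tested.

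Of the 3 members of asparagine and proline synthesis 2 rose in each cohort, where 15.6%, 7.64% and 19.4% of all genes rose. Aldh18a1 (ENSMUSG00000025007, chr19:40550257-40588463), the first enzyme from glutamate to proline, was at 1.57, 1.78 and 1.62 FPKM in CaggCreERT2 controls and 8.66, 11.8 and 5.37 in Tsc2 KO mice. KspCre mice had Aldh18a1 at 0.833, 1.12 and 1.2 FPKM in controls and 5.19, 5.35 and 4.57 in Tsc2 KO, and with vehicle at 1.04, 1.0 and 0.923 in controls and 7.49, 7.83 and 5.61 in Tsc2 KO. Groups were far apart in each cohort, and the log2 fold changes were 2.43 ± 0.23, adjusted p = 2.26e-05, 2.25 ± 0.22, adjusted p = 0.000196 and 2.82 ± 0.22, adjusted p = 1.1e-07. Asns, asparagine synthetase, was at 1.51, 3.73 and 2.33 FPKM in CaggCreERT2 controls and 21.4, 21.8 and 10.3 in Tsc2 KO mice. KspCre mice had Asns at 2.81, 2.52 and 3.76 FPKM in controls and 8.59, 11 and 7.73 in Tsc2 KO, and with vehicle at 2.63, 4.76 and 0.947 in controls and 12.8, 9.58 and 10.1 in Tsc2 KO. Asns rose by 2.88 ± 0.34, adjusted p = 8.22e-05, 1.58 ± 0.35, adjusted p = 0.0119 and 1.96 ± 0.39, adjusted p = 0.000839 on the log2 scale, and its KspCre call was lost without control replicate 2. Pycr1, the last enzyme to proline, did not pass the test in any cohort (1.02 ± 0.43, 0.45 ± 0.57 and 0.28 ± 0.41).

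Of the 7 amino acid transporters 4 rose in the CaggCreERT2 cohort, none passed the test in untreated KspCre mice and 3 rose with vehicle. Of all genes 15.6%, 7.64% and 19.4% rose in these comparisons. Slc7a5, the leucine exchanger LAT1, was at 4.01, 2.24 and 3.01 FPKM in CaggCreERT2 controls and 10.8, 11.1 and 5.72 in Tsc2 KO mice. KspCre mice had Slc7a5 at 1.88, 2.75 and 2.34 FPKM in controls and 3.51, 4.17 and 4.3 in Tsc2 KO, and with vehicle at 2.48, 2.6 and 2.92 in controls and 12.8, 6.82 and 6.7 in Tsc2 KO. Its groups were separate in each cohort (1.65 ± 0.28, adjusted p = 0.00106, 0.78 ± 0.25, adjusted p = 0.0627 and 1.72 ± 0.39, adjusted p = 0.00248). Slc38a2, the neutral amino acid importer SNAT2, was at 11.2, 13.8 and 11.7 FPKM in CaggCreERT2 controls and 29, 26.7 and 15.6 in Tsc2 KO mice. KspCre mice had Slc38a2 at 10.3, 11.9 and 8.95 FPKM in controls and 16.1, 17.6 and 13.4 in Tsc2 KO, and with vehicle at 10.1, 12.7 and 10.5 in controls and 27.4, 28.1 and 24.8 in Tsc2 KO. Slc38a2 differed by 1.03 ± 0.21, adjusted p = 0.00299, 0.59 ± 0.26, adjusted p = 0.17 and 1.27 ± 0.20, adjusted p = 0.000119. Slc7a1, the cationic amino acid transporter CAT1, was at 1.55, 2.07 and 1.96 FPKM in CaggCreERT2 controls and 5.22, 4.17 and 2.3 in Tsc2 KO mice. KspCre mice had Slc7a1 at 1.06, 1.19 and 2.65 FPKM in controls and 1.48, 1.82 and 1.38 in Tsc2 KO, and with vehicle at 1.3, 1.98 and 1.3 in controls and 3.79, 3.03 and 2.37 in Tsc2 KO. The KspCre groups overlapped, and the log2 fold changes were 1.13 ± 0.27, adjusted p = 0.00859, -0.07 ± 0.41, adjusted p = 0.935 and 1.0 ± 0.34, adjusted p = 0.027. With vehicle the Slc7a1 call was lost without control replicate 1 or 3 or Tsc2 KO replicate 1 or 2.

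Slc7a11, the cystine exchanger, rose in CaggCreERT2 kidneys (3.87 ± 0.56, adjusted p = 0.00037) at a very low level, from 0.0293, 0.011 and 0.0123 FPKM in controls to 0.362, 0.273 and 0.11 in Tsc2 KO mice. It did not pass the test in the others (1.85 ± 1.08 and 1.63 ± 0.76). The highest level of Slc7a11, 0.566 FPKM, was in KspCre DKO replicate 1, the mouse with the high macrophage sum. Slc3a2, the heavy chain shared by several exchangers, was among the most abundant members, at 126 ± 14.3 FPKM (SD, n = 3) in CaggCreERT2 controls, and did not pass the test in any cohort (0.34 ± 0.17, 0.69 ± 0.23 and 0.26 ± 0.24). Neither did the neutral amino acid transporters Slc1a4 (0.76 ± 0.30, -0.33 ± 0.18 and -0.40 ± 0.18) and Slc1a5 (0.09 ± 0.15, 0.20 ± 0.32 and 0.02 ± 0.29), nor the tRNA exporter Xpot (0.22 ± 0.11, -0.14 ± 0.12 and -0.25 ± 0.12).

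Among secreted factors Gdf15, a stress hormone that lowers appetite, was at 10.04, 6.04 and 7.25 FPKM in CaggCreERT2 controls and 41.2, 29.1 and 21 in Tsc2 KO mice. KspCre mice had Gdf15 at 2.0, 7.42 and 5.29 FPKM in controls and 31.9, 27.2 and 15.6 in Tsc2 KO, and with vehicle at 2.47, 1.26 and 1.26 in controls and 38.1, 36.6 and 32.9 in Tsc2 KO. Gdf15 rose in all cohorts, by 2.04 ± 0.31, adjusted p = 0.000442, 2.34 ± 0.42, adjusted p = 0.0043 and 4.42 ± 0.51, adjusted p = 6.06e-06 on the log2 scale. Stc2, a stanniocalcin, rose in the CaggCreERT2 cohort (0.80 ± 0.19, adjusted p = 0.0069) and did not pass the test in the others (0.15 ± 0.37 and 0.95 ± 0.40).

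Read against the promoter windows, the ATF4 core lay in those of 4 of the 12 genes that rose in all cohorts, 2 of the 9 that rose in 1 or 2 and had a window, and 2 of the 8 that rose in none. Pycr1 and Slc1a4 carry the strict form and did not rise in any cohort, and Mthfd2, Psat1 and Ddit4 rose in all with no match in this window.

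With added loss of Tfeb part of the group fell in the CaggCreERT2 and vehicle-treated cohorts, and most members did not pass the test. In CaggCreERT2 DKO against Tsc2 KO mice 8 of 31 members fell and 1 rose, where 4.58% of all genes fell and 5.34% rose. In vehicle-treated mice 7 fell and 3 rose, where 10.0% fell and 11.9% rose. In untreated KspCre mice none passed the test, where 0.0601% rose and 0.0842% fell, 8 members had an unadjusted p under 0.05, as did 2090 of 16631 genes tested, and DESeq2 called 1. Aldh18a1, Mthfd2, Phgdh and Trib3 fell in both of the first 2 cohorts, Asns, Mthfd1l, Slc7a5 and Stc2 in CaggCreERT2 mice only, and Atf3, Gdf15 and Slc38a2 in vehicle-treated mice only, and a difference between the cohorts was not tested. Shmt2 rose in both, and Shmt1 and Mthfd1 rose in vehicle-treated mice. Comparisons of DKO and of rapamycin with Tsc2 KO share the Tsc2 KO mice with the comparisons above, and their directions are not independent. Under the count table's names 5 members were called in the CaggCreERT2 comparison. The count of 9 calls there was 3 without DKO replicate 3 or Tsc2 KO replicate 1, and 4 without DKO replicate 2.

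Mthfd2 was at 7.46, 5.64 and 5.75 FPKM in CaggCreERT2 DKO mice, 3.98, 3.08 and 4.62 in KspCre DKO mice and 3.29, 3.35 and 3.03 in vehicle-treated DKO mice. The CaggCreERT2 ranges of DKO and Tsc2 KO overlap and the others do not, and the log2 fold changes against Tsc2 KO were -0.89 ± 0.23, adjusted p = 0.0318, -0.51 ± 0.23, adjusted p = 0.381 and -1.21 ± 0.18, adjusted p = 0.000219. Aldh18a1 stood at 4.21, 4.25 and 3.85 FPKM in CaggCreERT2 DKO mice, 4.12, 2.92 and 3.08 in KspCre and 2.23, 2.9 and 2.37 with vehicle. All DKO mice lay between the controls and the Tsc2 KO mice of their cohort (-1.09 ± 0.22, adjusted p = 0.0111, -0.57 ± 0.21, adjusted p = 0.279 and -1.48 ± 0.20, adjusted p = 9.84e-05). Trib3 values of DKO mice were 4.6, 3.27 and 3.02 FPKM in CaggCreERT2, 1.33, 1.94 and 2.99 in KspCre and 1.56, 1.2 and 1.2 with vehicle. Against Tsc2 KO that is -1.24 ± 0.33, adjusted p = 0.0322, -0.31 ± 0.39, adjusted p = 0.813 and -1.93 ± 0.42, adjusted p = 0.00341. Phgdh reached 34.5, 28.1 and 34.9 FPKM in CaggCreERT2 DKO mice, 14.2, 20.9 and 19.4 in KspCre and 15, 11.3 and 14.4 with vehicle. It fell in the first and the third (-1.45 ± 0.26, adjusted p = 0.00541 and -1.45 ± 0.32, adjusted p = 0.00435), and in both its DKO level did not differ past the test from controls (0.46 ± 0.25, adjusted p = 0.301 and 0.57 ± 0.32, adjusted p = 0.303).

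Asns was at 7.59, 5.86 and 6.51 FPKM in CaggCreERT2 DKO mice, 7.12, 7.62 and 6.37 in KspCre and 5.38, 7.1 and 6.96 with vehicle. It fell in the first (-1.45 ± 0.32, adjusted p = 0.0146) and not past the test with vehicle (-0.74 ± 0.37, adjusted p = 0.17). Mthfd1l was at 1.5, 0.896 and 1.16 FPKM in CaggCreERT2 DKO mice, 1.48, 1.14 and 1.23 in KspCre and 1.15, 1.53 and 1.52 with vehicle. The CaggCreERT2 DKO mice overlap the controls, and the log2 fold changes against Tsc2 KO were -1.71 ± 0.28, adjusted p = 0.00398, -1.09 ± 0.42, adjusted p = 0.31 and -0.87 ± 0.37, adjusted p = 0.109. Slc7a5 was at 5.24, 5.43 and 3.31 FPKM in CaggCreERT2 DKO mice, 6.68, 5.65 and 5.27 in KspCre and 6.82, 10.3 and 5.21 with vehicle. In KspCre mice the DKO values lay above those of Tsc2 KO, and the differences were -1.01 ± 0.28, adjusted p = 0.038, 0.56 ± 0.25, adjusted p = 0.382 and -0.24 ± 0.37, adjusted p = 0.685. Gdf15 was at 18.9, 20.1 and 18.3 FPKM in CaggCreERT2 DKO mice, 14.4, 11.2 and 9.35 in KspCre and 12.1, 8.16 and 10.2 with vehicle. DKO mice were below Tsc2 KO in each cohort and passed the test with vehicle (-0.70 ± 0.29, adjusted p = 0.15, -1.09 ± 0.40, adjusted p = 0.287 and -1.82 ± 0.44, adjusted p = 0.00704). Slc38a2 was at 15.8, 16.1 and 17.9 FPKM in CaggCreERT2 DKO mice, 15.8, 11.4 and 13.3 in KspCre and 12, 14.3 and 13.3 with vehicle, where it fell (-1.02 ± 0.20, adjusted p = 0.00167).

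Ddit3, Ddit4, Psat1 and Psph fell in no cohort when Tfeb was also lost. Ddit4 was at 58.7, 52.9 and 45.7 FPKM in CaggCreERT2 DKO mice, 29.97, 31.2 and 33.9 in KspCre and 45.5, 42.2 and 44 with vehicle. The lowest DKO mouse had more Ddit4 than the highest control in each cohort, and the log2 differences from Tsc2 KO were 0.35 ± 0.21, adjusted p = 0.319, -0.24 ± 0.23, adjusted p = 0.74 and -0.18 ± 0.30, adjusted p = 0.72. Ddit3 was at 18.1, 17.6 and 12.9 FPKM in CaggCreERT2 DKO mice, 11.6, 15.7 and 15.1 in KspCre and 8.59, 16 and 9.41 with vehicle. Its differences from Tsc2 KO were 0.08 ± 0.15, 0.08 ± 0.23 and -0.09 ± 0.25. Psat1 was at 28.6, 23.8 and 27.9 FPKM in CaggCreERT2 DKO mice, 12.4, 31.9 and 23.1 in KspCre and 22.5, 17 and 19.96 with vehicle (-0.47 ± 0.19, -0.31 ± 0.44 and -0.67 ± 0.30 against Tsc2 KO). Psph was at 8.48, 9.38 and 10.4 FPKM in CaggCreERT2 DKO mice, 3.32, 5.4 and 4.18 in KspCre and 5.94, 4.81 and 5.7 with vehicle (0.10 ± 0.12, -0.47 ± 0.18 and -0.12 ± 0.22). A p that misses the threshold does not show equal levels.

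Nupr1 was at 53.1, 37.4 and 30.6 FPKM in CaggCreERT2 DKO mice, 61.9, 74.8 and 62.4 in KspCre and 20.1, 43.9 and 22.1 with vehicle, where the difference from Tsc2 KO was -1.72 ± 0.60, adjusted p = 0.0504. Atf3 was at 11.8, 11.3 and 6.83 FPKM in CaggCreERT2 DKO mice, 5.34, 1.22 and 2.64 in KspCre and 1.85, 1.9 and 3.41 with vehicle. It fell with vehicle (-1.5 ± 0.38, adjusted p = 0.00995) and stood at 0.46 ± 0.28 in CaggCreERT2. Atf4 was at 49.6, 54.9 and 52.7 FPKM in CaggCreERT2 DKO mice, 41.2, 34.2 and 42.5 in KspCre and 39.4, 43.2 and 41.1 with vehicle. Its log2 differences from Tsc2 KO of -0.30 ± 0.11, adjusted p = 0.104, -0.15 ± 0.20, adjusted p = 0.831 and -0.44 ± 0.17, adjusted p = 0.0784 did not pass the test. Chac1 was at 2.77, 2.43 and 1.57 FPKM in CaggCreERT2 DKO mice, 1.91, 1.6 and 4.33 in KspCre and 0.941, 3.84 and 1.01 with vehicle. Sesn2 was at 18.3, 17.9 and 21.7 FPKM in CaggCreERT2 DKO mice, 19.1, 30.1 and 24.3 in KspCre and 30.4, 17.6 and 24.1 with vehicle. Neither Chac1 nor Sesn2 passed the test against Tsc2 KO (-0.86 ± 0.53 and -0.17 ± 0.21 with vehicle). Slc7a1 was at 3.44, 2.32 and 2.36 FPKM in CaggCreERT2 DKO mice, 2.17, 1.73 and 2.19 in KspCre and 1.19, 3.8 and 1.44 with vehicle, also with no call (-0.52 ± 0.33 with vehicle).

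Shmt2 was at 44.1, 51.9 and 63.5 FPKM in CaggCreERT2 DKO mice, 36.3, 54.7 and 47.3 in KspCre and 55.9, 48.1 and 55.8 with vehicle. It rose in the first and the third (0.83 ± 0.17, adjusted p = 0.0115, 0.19 ± 0.19, adjusted p = 0.752 and 1.41 ± 0.12, adjusted p = 1.73e-06). Shmt1 was at 27.1, 31.1 and 31.4 FPKM in CaggCreERT2 DKO mice, 20.4, 22.2 and 22.9 in KspCre and 28.3, 22.5 and 27.5 with vehicle, where it rose (0.57 ± 0.13, adjusted p = 0.00374). Proximal tubule genes rose in these comparisons too, 6 of 11 in CaggCreERT2, 1 in KspCre and 9 with vehicle, to sums of 5300 to 5900, 5510 to 8680 and 4510 to 5610 FPKM in DKO mice. Podocyte genes rose in 4, 0 and 4 of 6 and endothelial genes in 0, 0 and 3 of 7. Of 12 distal tubule and collecting duct genes 2, 2 and 7 rose, and 1, 0 and 1 fell. The part of these lists in the rise of Shmt2 and Shmt1 was not tested. With vehicle 10 of 10 proliferation genes (median log2 fold change -2.65) and 6 of 12 macrophage genes (median -1.11) fell in DKO against Tsc2 KO mice, and in CaggCreERT2 mice 0 and 1 did. In KspCre mice none of either list passed the test. Their part in the lower levels of the members was not tested. Of the members called in vehicle-treated DKO against Tsc2 KO mice, 9 were followed through the alternatives and all 9 kept their call in every one. Of 8 so followed in CaggCreERT2 only Phgdh did.

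**Figure D2:**
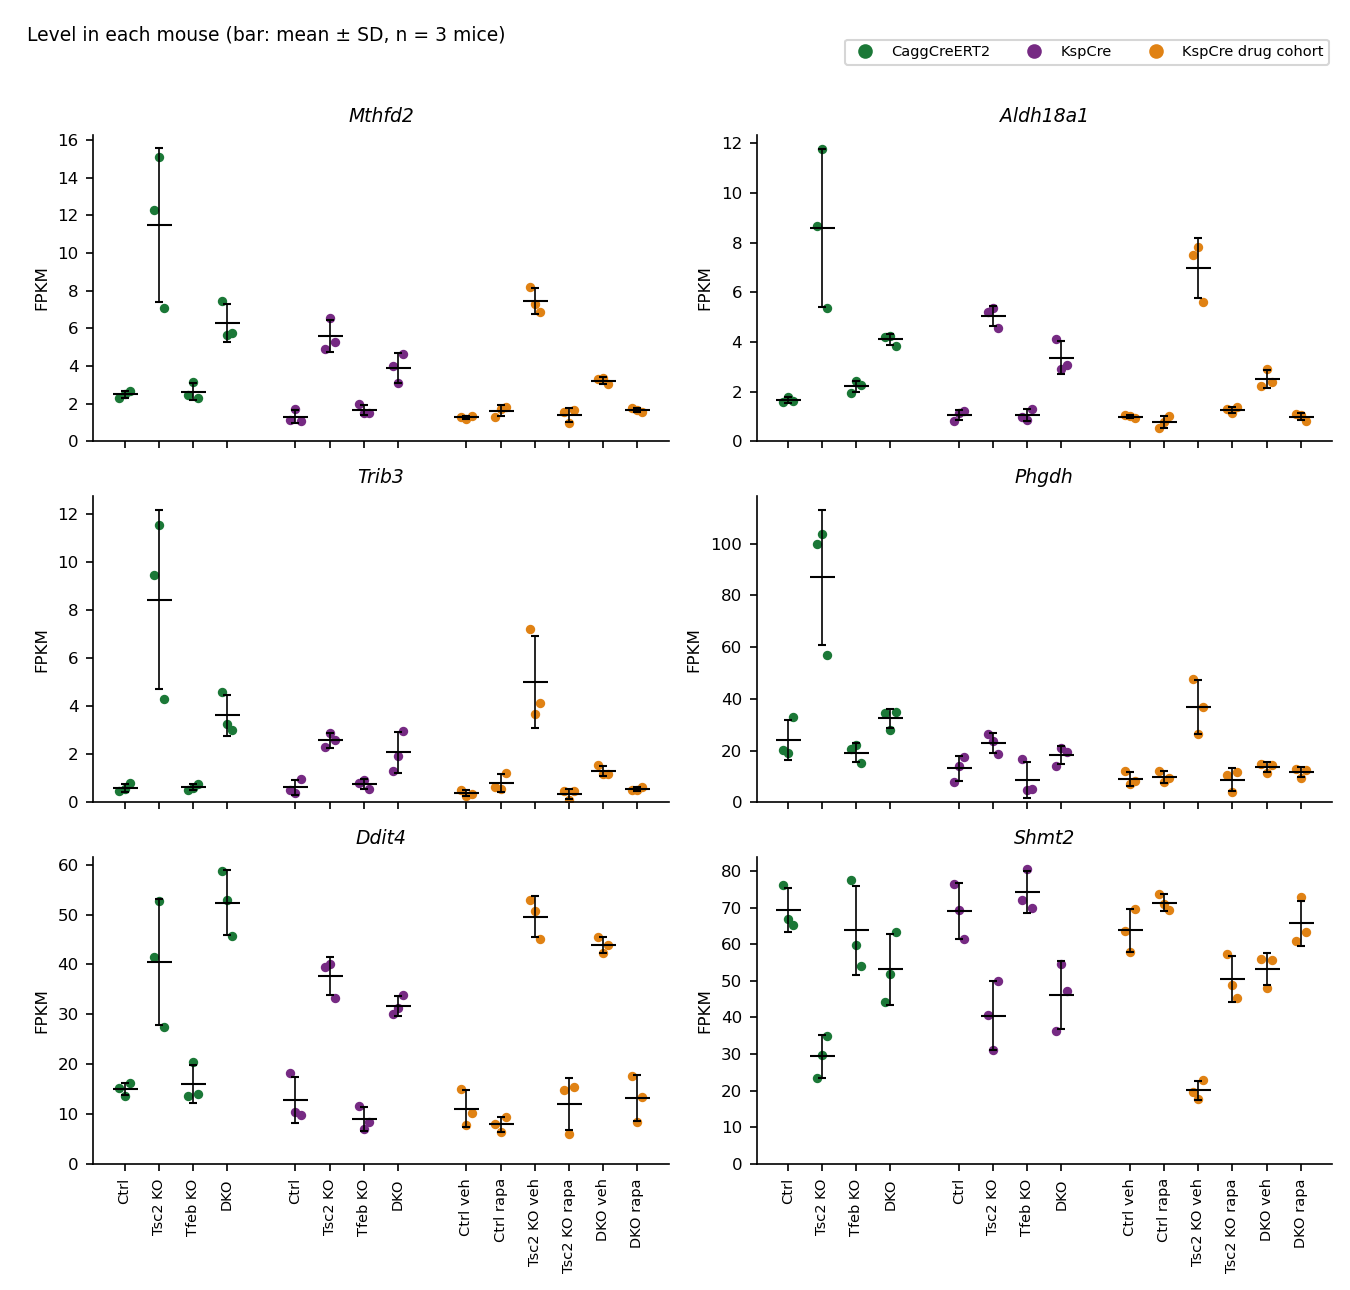
FPKM of 6 members in each of 42 mice (points), with the mean and SD of 3 mice (black bars), by group and cohort. In vehicle-treated mice Mthfd2, Aldh18a1, Trib3 and Phgdh are lower in DKO than in Tsc2 KO, Ddit4 is between 42.2 and 45.5 FPKM in DKO mice and lower with rapamycin, and Shmt2 is lowest in Tsc2 KO.

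Against controls some members were higher in DKO kidneys. In CaggCreERT2 mice 15 of 31 members rose and none fell, where 6.85% of all genes rose and 3.35% fell. These were Aldh18a1, Asns, Atf3, Atf4, Cebpb, Chac1, Ddit3, Ddit4, Gdf15, Mthfd2, Nupr1, Psat1, Psph, Slc7a11 and Trib3. The count falls to 0 under the count table's names, which exchange DKO and Tfeb KO libraries. In KspCre mice 7 rose and none fell, where 2.27% and 0.830% of all genes did. They were Aldh18a1, Ddit3, Ddit4, Mthfd2, Nupr1, Slc7a5 and Trib3, of which Slc7a5 had not passed the test in KspCre Tsc2 KO mice, and the count was 3 without control replicate 2, 4 without control replicate 1 or 3, and 6 without DKO replicate 1, the mouse with high immune markers. With vehicle 10 rose and none fell, where 3.96% and 2.06% of all genes did. They were Aldh18a1, Chac1, Ddit3, Ddit4, Gdf15, Mthfd2, Psat1, Sesn2, Slc7a5 and Trib3, and the count was 4 without control replicate 3 and 6 without DKO replicate 2. The values of Ddit4 were 1.85 ± 0.22, adjusted p = 0.000241, 1.32 ± 0.24, adjusted p = 0.0175 and 1.99 ± 0.32, adjusted p = 0.00211, and those of Mthfd2 were 1.37 ± 0.24, adjusted p = 0.00393, 1.57 ± 0.24, adjusted p = 0.00858 and 1.34 ± 0.19, adjusted p = 0.000745. Among marker genes 4 of 6 podocyte and 2 of 11 proximal tubule genes fell and 2 of 12 macrophage genes rose in CaggCreERT2 DKO mice. In KspCre DKO mice 7 of 10 proliferation genes (median log2 fold change 2.4) and 1 of 12 macrophage genes rose, and 4 of 6 podocyte and 3 of 11 proximal tubule genes fell. With vehicle 3 of 11 proximal tubule genes fell, and 1 of 12 macrophage genes rose and 1 fell. Their part in the levels of the members was not tested. Shmt2 did not pass the test against controls in any DKO group (-0.35 ± 0.17, -0.58 ± 0.19 and -0.26 ± 0.12).

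Loss of Tfeb alone changed none of the members past the test. In CaggCreERT2 Tfeb KO mice 0 of 31 were called by edgeR, where 0.0122% of all genes rose and 0.00612% fell, 2 members had an unadjusted p under 0.05, as did 1309 of 16348 genes tested, and DESeq2 called 0. In KspCre Tfeb KO mice 0 of 31 were called, where 0 genes rose and 0 fell, again with 2 at an unadjusted p under 0.05 (1424 of 16631 genes tested) and 0 by DESeq2. In CaggCreERT2 Tfeb KO mice 5 marker genes of sex had a median log2 fold change of -11.5 against controls. None of these 5 passed the test, which does not show balance. With a median this far below 0 some Y-linked genes were far lower in Tfeb KO mice than in controls. The sexes can therefore not be taken as balanced between these groups. Mthfd2 was at 2.47, 3.13 and 2.29 FPKM in CaggCreERT2 Tfeb KO mice and 1.98, 1.5 and 1.51 in KspCre. Phgdh was at 20.5, 22.2 and 15.1 (CaggCreERT2) and 16.8, 4.64 and 5.02 (KspCre) FPKM, and Psat1 at 6.19, 7.2 and 5.57 (CaggCreERT2) and 8.64, 1.93 and 5.25 (KspCre). Psat1 and Phgdh varied widely among the 3 KspCre Tfeb KO mice. Ddit4 was at 13.5, 20.4 and 14.1 (CaggCreERT2) and 11.7, 6.93 and 8.46 (KspCre) FPKM, Ddit3 at 8.8, 7.87 and 6.41 (CaggCreERT2) and 9.48, 8.56 and 5.54 (KspCre), and Trib3 at 0.523, 0.616 and 0.763 (CaggCreERT2) and 0.812, 0.929 and 0.555 (KspCre). Shmt2 was at 77.5, 59.9 and 54.2 (CaggCreERT2) and 72.1, 80.7 and 70.1 (KspCre) FPKM, and Shmt1 at 30.6, 31.9 and 26.7 (CaggCreERT2) and 29, 26 and 25.1 (KspCre). The other members given by mouse were Aldh18a1 at 1.96, 2.41 and 2.25 (CaggCreERT2) and 0.993, 0.877 and 1.32 (KspCre) FPKM, Asns at 1.8, 2.49 and 2.35 (CaggCreERT2) and 2.44, 0.639 and 1.24 (KspCre), and Mthfd1l at 1.13, 1.65 and 1.62 (CaggCreERT2) and 0.456, 1.42 and 1.04 (KspCre). Atf4 was at 40.4, 34.9 and 31.9 (CaggCreERT2) and 43.9, 30.9 and 39.3 (KspCre) FPKM, Atf3 at 0.677, 0.79 and 1.09 (CaggCreERT2) and 1.44, 0.106 and 0.299 (KspCre), Nupr1 at 12, 16.6 and 11.9 (CaggCreERT2) and 28.4, 5.77 and 9.59 (KspCre), and Chac1 at 0.212, 0.24 and 0.22 (CaggCreERT2) and 0.436, 0.186 and 0.36 (KspCre). Gdf15 was at 12.5, 6.04 and 5.93 (CaggCreERT2) and 3.95, 7.47 and 5.99 (KspCre) FPKM, Psph at 4.35, 5.03 and 4.06 (CaggCreERT2) and 4.31, 3.67 and 3.15 (KspCre), and Sesn2 at 15.1, 12 and 11.7 (CaggCreERT2) and 14.2, 18.9 and 13.9 (KspCre). None of these passed the test against controls. Among transporters Slc7a5 was at 4.24, 3.71 and 4.27 FPKM (CaggCreERT2) and 1.86, 4.02 and 3.4 (KspCre), Slc38a2 at 11.4, 16.7 and 15.1 and 13, 6.03 and 13.5 in the same order, and Slc7a1 at 2.07, 2.99 and 2.03 and 1.99, 0.586 and 1.78, also with no call.

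Whether the effect of losing Tfeb differed with the state of Tsc2 was tested as an interaction. In the CaggCreERT2 cohort 2 members passed, where 1.40% of all genes did. In both the effect was more negative with Tsc2 lost, with a difference of -1.53 ± 0.32, adjusted p = 0.0406 for Aldh18a1 and -2.01 ± 0.40, adjusted p = 0.0324 for Mthfd1l. These calls were lost under the count table's names, with Xist as a covariate and without any 1 of 9 (Aldh18a1) or 8 (Mthfd1l) of the 12 libraries. Without Tsc2 KO replicate 3, on the other hand, 10 members passed. The 5 marker genes of sex had a median difference of 12.5 in this test, and none of them passed. In the KspCre cohort none passed in edgeR, where 0 of all genes did, and 6 members had an unadjusted p under 0.05 (1630 of 16631 genes tested) while DESeq2 called 0.

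With rapamycin most of the members that were high in vehicle-treated Tsc2 KO kidneys fell. In Tsc2 KO mice 18 of 31 members fell and 3 rose with rapamycin against vehicle, where 14.0% of all genes fell and 15.4% rose. Proliferation genes (10 of 10, median log2 fold change -3.44) and macrophage genes (8 of 12, median -1.25) fell in the same comparison, and their part in the fall of the members was not tested. The 3 that rose were the 3 that Tsc2 loss had lowered with vehicle, Mthfd1, Shmt1 and Shmt2. Among those that Tsc2 loss raised with vehicle, Psph (-0.61 ± 0.22, adjusted p = 0.0516) and Sesn2 (-0.35 ± 0.21, adjusted p = 0.227) did not pass the test. Against rapamycin-treated controls no member passed in edgeR, where 0.505% of all genes rose and 0.129% fell, with 6 members at an unadjusted p under 0.05 (2189 of 17027 genes tested) and 2 called by DESeq2. In rapamycin-treated controls against vehicle none passed either, where 0 genes rose and 0.0294% fell, with 4 members at an unadjusted p under 0.05 (1926 of 17027 genes tested) and 0 called by DESeq2. In DKO mice 8 fell and 1 rose, where 3.47% fell and 2.10% rose. They were Aldh18a1, Atf4, Cebpb, Ddit3, Ddit4, Mthfd2, Psat1 and Psph, and Slc1a4 rose. The DKO count of 9 was 3 to 5 whichever library was left out, lowest without rapamycin-treated replicate 3. In the same DKO comparison 0 of 10 proliferation genes passed the test, and 3 of 12 macrophage genes fell and 1 rose.

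**Figure D3:**
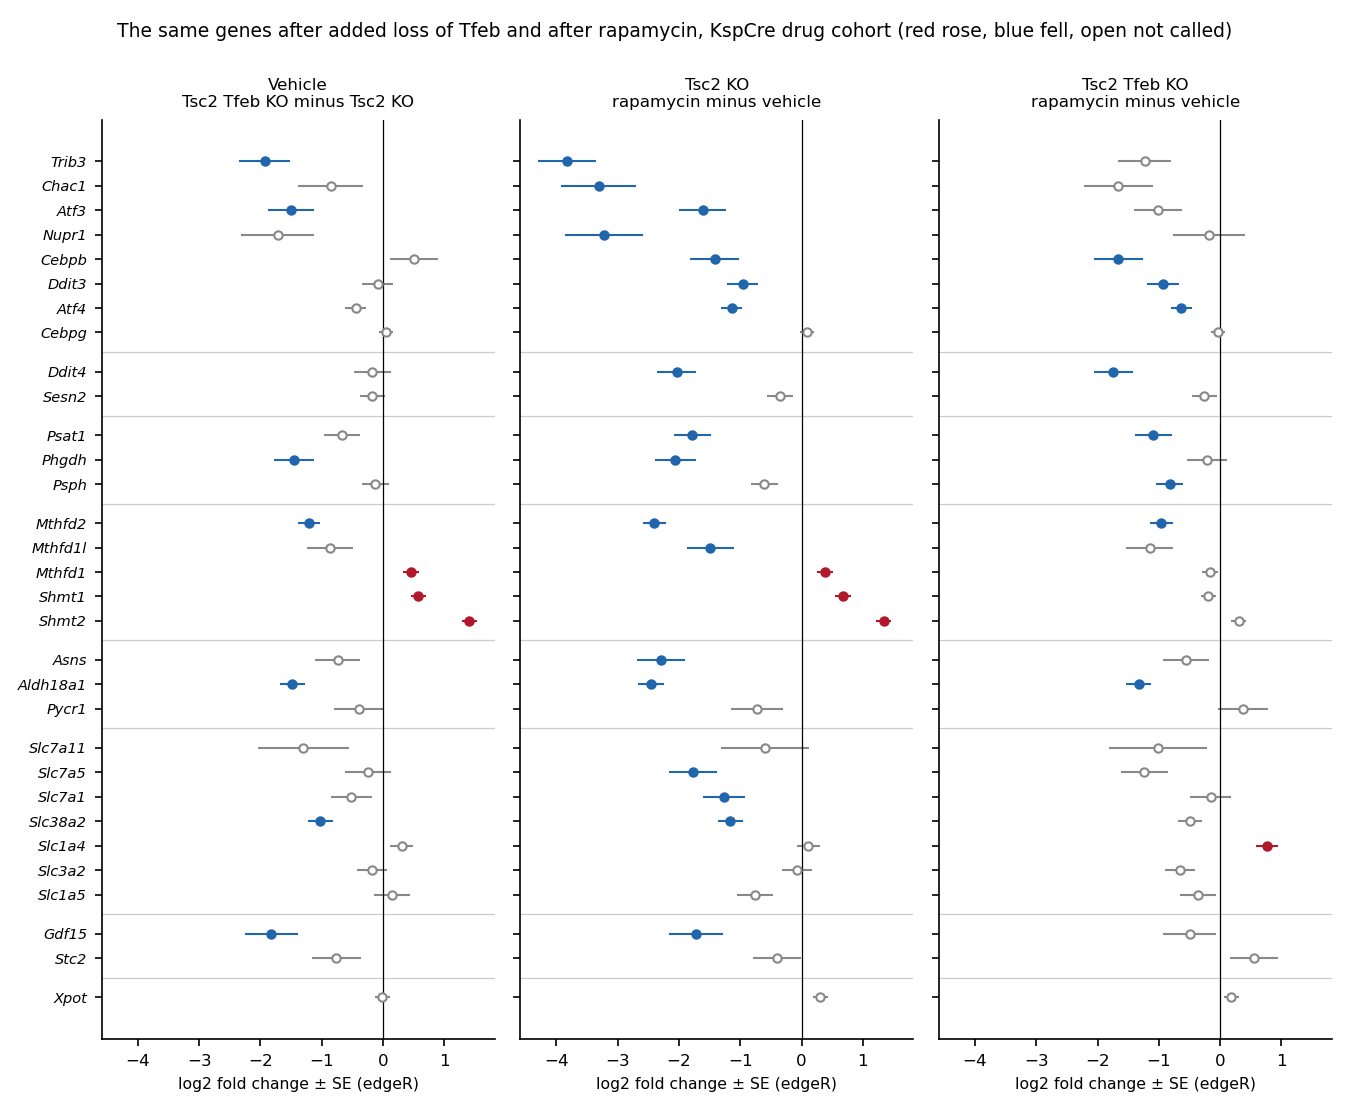
Fitted log2 fold changes of the members, with standard errors, in the KspCre drug cohort, 3 mice a group, for DKO against Tsc2 KO with vehicle, rapamycin against vehicle in Tsc2 KO, and rapamycin against vehicle in DKO mice. Filled red points rose, filled blue points fell and open points did not pass the test. Ddit3 and Ddit4 lie near 0 in the left panel and below 0 in the other 2. Phgdh is a filled blue point in the first 2 panels and an open point in the third.

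Mthfd2 with rapamycin was at 1.57, 0.978 and 1.65 FPKM in Tsc2 KO mice, 1.78, 1.64 and 1.55 in DKO mice and 1.28, 1.74 and 1.83 in controls. The highest Tsc2 KO value was below the highest control value, with log2 fold changes against vehicle of -2.4 ± 0.19, adjusted p = 3.76e-07 in Tsc2 KO and -0.96 ± 0.18, adjusted p = 0.00774 in DKO mice. Aldh18a1 with rapamycin was at 1.28, 1.15 and 1.37 FPKM in Tsc2 KO mice, 1.09, 1.06 and 0.832 in DKO mice and 0.554, 0.768 and 1.03 in controls. It fell in Tsc2 KO (-2.46 ± 0.21, adjusted p = 7.86e-07) and in DKO mice (-1.33 ± 0.21, adjusted p = 0.00186). With rapamycin every Tsc2 KO mouse still had more Aldh18a1 than every control. Atf3 was likewise higher without overlap and Shmt2 lower, as given below, although no member passed the test against rapamycin-treated controls. Ddit4 with rapamycin was at 14.7, 5.98 and 15.3 FPKM in Tsc2 KO mice, 17.6, 8.39 and 13.4 in DKO mice and 8.02, 6.32 and 9.33 in controls. Rapamycin lowered Ddit4 in both genotypes (-2.04 ± 0.32, adjusted p = 0.000183 and -1.74 ± 0.32, adjusted p = 0.005). Ddit3 with rapamycin was at 5.02, 5.58 and 7.9 FPKM in Tsc2 KO mice, 8.4, 4.04 and 5.37 in DKO mice and 5.81, 5.53 and 5.56 in controls. It fell likewise (-0.96 ± 0.26, adjusted p = 0.0106 and -0.93 ± 0.26, adjusted p = 0.0452), and its call in DKO mice was lost without rapamycin-treated or vehicle-treated DKO replicate 2 or 3.

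Trib3 with rapamycin was at 0.47, 0.0944 and 0.472 FPKM in Tsc2 KO mice, 0.505, 0.528 and 0.638 in DKO mice and 0.627, 0.575 and 1.23 in controls. Its fall in Tsc2 KO mice was -3.83 ± 0.47, adjusted p = 2.09e-05, and in DKO mice the difference was -1.23 ± 0.43, adjusted p = 0.108. Phgdh with rapamycin was at 10.8, 3.95 and 11.9 FPKM in Tsc2 KO mice, 12.8, 9.5 and 12.7 in DKO mice and 12.3, 7.84 and 9.59 in controls. It fell in Tsc2 KO mice (-2.06 ± 0.33, adjusted p = 0.000244) from a level that DKO mice did not reach, where the difference was -0.21 ± 0.32, adjusted p = 0.745. Psat1 with rapamycin was at 8.12, 6.6 and 12.8 FPKM in Tsc2 KO mice, 11.9, 7.08 and 8.95 in DKO mice and 5.2, 3.9 and 8.62 in controls (-1.78 ± 0.30, adjusted p = 0.000398 and -1.09 ± 0.30, adjusted p = 0.0449). Psph with rapamycin was at 3.59, 3.66 and 4.49 FPKM in Tsc2 KO mice, 3.35, 2.69 and 3.23 in DKO mice and 2.77, 3.9 and 3.76 in controls, and passed the test in DKO mice (-0.83 ± 0.23, adjusted p = 0.0427). The DKO calls of Psat1 and Atf4 were lost without any 1 of the 6 libraries, and that of Psph without 5 of them.

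Atf4 with rapamycin was at 27.5, 22.3 and 26.2 FPKM in Tsc2 KO mice, 28.6, 26.4 and 24.8 in DKO mice and 25.2, 27.5 and 27.5 in controls. It fell in both genotypes (-1.14 ± 0.17, adjusted p = 0.000155 and -0.63 ± 0.17, adjusted p = 0.0445). Nupr1 with rapamycin was at 8.01, 4.09 and 18.2 FPKM in Tsc2 KO mice, 39.6, 9.65 and 26.4 in DKO mice and 7.78, 6.22 and 12.1 in controls (-3.22 ± 0.64, adjusted p = 0.00131 and -0.18 ± 0.59, adjusted p = 0.89). Chac1 with rapamycin was at 0.373, 0.286 and 0.383 FPKM in Tsc2 KO mice, 0.793, 0.302 and 0.739 in DKO mice and 0.389, 0.537 and 0.688 in controls (-3.31 ± 0.61, adjusted p = 0.000749 and -1.66 ± 0.57, adjusted p = 0.1). Atf3 with rapamycin was at 2.42, 1.61 and 2.56 FPKM in Tsc2 KO mice, 1.07, 0.605 and 1.89 in DKO mice and 0.806, 0.431 and 0.808 in controls, and fell in Tsc2 KO mice (-1.61 ± 0.38, adjusted p = 0.00484). Nupr1 and Chac1 fell in Tsc2 KO mice as well, and none of these 3 passed the test in DKO mice. Gdf15 with rapamycin was at 10.9, 3.21 and 18.4 FPKM in Tsc2 KO mice, 5.27, 8.32 and 7.89 in DKO mice and 6.97, 2.87 and 4.61 in controls. It fell in Tsc2 KO mice (-1.72 ± 0.44, adjusted p = 0.00752). Rapamycin-treated controls were at 4.82 ± 2.06 FPKM (SD, n = 3) against 1.66 ± 0.696 with vehicle, a log2 difference of 1.52 ± 0.48, adjusted p = 0.377 that did not pass the test.

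Asns with rapamycin was at 2.43, 1.76 and 2.41 FPKM in Tsc2 KO mice, 4.75, 3.75 and 4.74 in DKO mice and 0.91, 1.04 and 1.85 in controls. It fell in Tsc2 KO mice (-2.29 ± 0.39, adjusted p = 0.000411). Mthfd1l with rapamycin was at 0.538, 0.995 and 1.19 FPKM in Tsc2 KO mice, 0.967, 0.527 and 0.404 in DKO mice and 0.287, 0.727 and 0.577 in controls, and fell in Tsc2 KO mice (-1.49 ± 0.38, adjusted p = 0.00782). Sesn2 with rapamycin was at 24.6, 16.4 and 22.7 FPKM in Tsc2 KO mice, 24.6, 17.2 and 18.5 in DKO mice and 24.8, 18.2 and 18.3 in controls. The transporters Slc7a5, Slc38a2 and Slc7a1 fell in Tsc2 KO mice (-1.77 ± 0.39, adjusted p = 0.00291, -1.16 ± 0.20, adjusted p = 0.000413 and -1.27 ± 0.34, adjusted p = 0.0105). Slc7a5 with rapamycin was at 3.07, 1.01 and 3.62 FPKM in Tsc2 KO mice, 3.47, 3.15 and 2.82 in DKO mice and 3.54, 4.32 and 1.99 in controls. Slc38a2 with rapamycin was at 8.74, 14.7 and 12.4 FPKM in Tsc2 KO mice, 9.09, 9.62 and 9.36 in DKO mice and 6.67, 12.1 and 11.9 in controls. Slc7a1 with rapamycin was at 1.05, 1.24 and 1.52 FPKM in Tsc2 KO mice, 1.56, 1.92 and 2.28 in DKO mice and 1.94, 1.71 and 2.26 in controls. Cebpb, which had not risen with Tsc2 loss in this cohort, fell with rapamycin in Tsc2 KO (-1.42 ± 0.41, adjusted p = 0.0151) and DKO mice (-1.66 ± 0.40, adjusted p = 0.0263). One vehicle-treated DKO mouse had Cebpb at 86.1 FPKM, against 31.8 and 32.7 in the other two.

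Shmt2 with rapamycin was at 57.4, 48.9 and 45.3 FPKM in Tsc2 KO mice, 61, 72.8 and 63.3 in DKO mice and 73.8, 71 and 69.5 in controls. It rose in Tsc2 KO mice (1.34 ± 0.12, adjusted p = 1.33e-06) and in DKO mice the difference was 0.30 ± 0.12, adjusted p = 0.152. Shmt1 with rapamycin was at 25.6, 31.3 and 26.9 FPKM in Tsc2 KO mice, 21.1, 25.5 and 21.9 in DKO mice and 26.4, 25.8 and 27.6 in controls, and rose in Tsc2 KO mice (0.68 ± 0.13, adjusted p = 0.000773). Proximal tubule genes rose beside them, 10 of 11 in Tsc2 KO and 1 of 11 in DKO mice, to sums of 7210 to 9320 and 10200 to 10700 FPKM. In Tsc2 KO mice 4 of 6 podocyte genes rose (median log2 fold change 1.3). Of 12 distal tubule and collecting duct genes 7 rose and 1 fell (median 0.95). In DKO mice 0 of 6 podocyte genes passed the test, and 2 of 12 distal tubule and collecting duct genes rose and 1 fell. The part of these lists in the rise of Shmt1 and Shmt2 was not tested.

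Differences between rapamycin effects were tested as interactions. In Tsc2 KO against control mice 16 members passed, 14 more negative and 2 more positive in Tsc2 KO, where 20.8% of all genes passed. The lowest values were those of Trib3 (-4.91 ± 0.65, adjusted p = 0.000108), Chac1 (-3.53 ± 0.86, adjusted p = 0.00875) and Gdf15 (-3.24 ± 0.65, adjusted p = 0.00264). The Sesn2 call was lost without any 1 of 5 of the 12 libraries, that of Slc7a1 without any 1 of 4, and those of Psat1 and Ddit4 without 3 and 2. In this test 10 of 10 proliferation and 4 of 12 macrophage genes were more negative and 10 of 11 proximal tubule genes more positive. In Tsc2 KO against DKO mice 7 passed, where 6.95% of all genes did. Aldh18a1, Mthfd2, Phgdh, Nupr1 and Trib3 responded more negatively in Tsc2 KO, by -1.13 ± 0.29, -1.45 ± 0.26, -1.84 ± 0.46, -3.04 ± 0.85 and -2.6 ± 0.62, and Shmt1 and Shmt2 more positively, by 0.87 ± 0.18 and 1.03 ± 0.17. The Nupr1 call was lost without any 1 of 9 of the 12 libraries and that of Aldh18a1 without any 1 of 7, and those of Phgdh and Trib3 without 3 and 2. Ddit4 and Ddit3 did not pass this test (-0.30 ± 0.43, adjusted p = 0.747 and -0.03 ± 0.36, adjusted p = 0.978). The count of 7 was 4 without rapamycin-treated DKO replicate 1 or 3, vehicle-treated DKO replicate 3 or vehicle-treated Tsc2 KO replicate 1, and 11 without vehicle-treated DKO replicate 2. Of 11 proximal tubule genes 9 passed this test, all more positive in Tsc2 KO, and 6 of 10 proliferation genes (median -2.72) and 1 of 12 macrophage genes were more negative. The part of these lists in either interaction was not tested.

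Set side by side, DKO mice with vehicle and Tsc2 KO mice with rapamycin differed in 4 members, all higher in the DKO mice, where 0.828% of all genes were higher and 0.440% lower. They were Ddit4 (1.86 ± 0.32, adjusted p = 0.00992), Cebpb (1.92 ± 0.41, adjusted p = 0.0329), Mthfd2 (1.19 ± 0.19, adjusted p = 0.00615) and Aldh18a1 (0.98 ± 0.21, adjusted p = 0.0329). Under DESeq2 the count was 12, with only the 2 groups fitted it was 0, and it was 2 without vehicle-treated DKO replicate 2 or any 1 of the Tsc2 KO mice.

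Other genes of these pathways were counted from lists written with earlier results of these data known. Of 20 cytosolic tRNA synthetases, which ATF4 also controls, 16 rose in CaggCreERT2, 7 in KspCre and 13 in vehicle-treated Tsc2 KO mice, and 1 fell in the last, where 15.6%, 7.64% and 19.4% of all genes rose and 13.4%, 6.21% and 18.9% fell. Their median log2 fold change was 0.76, 0.28 and 0.44. Cars and Aars led in the first cohort (1.33 ± 0.16, adjusted p = 0.000102 and 1.32 ± 0.15, adjusted p = 6.62e-05), Vars and Aars in KspCre (0.81 ± 0.17, adjusted p = 0.00795 and 0.68 ± 0.10, adjusted p = 0.00153) and Vars and Sars with vehicle (1.4 ± 0.15, adjusted p = 2.39e-06 and 0.98 ± 0.13, adjusted p = 1.88e-05). In DKO against Tsc2 KO mice 7, 0 and 8 of the 20 fell, where 4.58%, 0.0842% and 10.0% of all genes did. With rapamycin 12 fell and 1 rose in Tsc2 KO mice (14.0% and 15.4% of all genes), and 1 fell in DKO mice (3.47%). Of 17 tested among 18 other ATF4 targets 10 rose and 3 fell, 5 rose and 3 fell, and 9 rose and 4 fell with loss of Tsc2, beside the same shares of all genes. In DKO against Tsc2 KO mice 1 rose and 5 fell in CaggCreERT2, where 5.34% of all genes rose and 4.58% fell. None passed in KspCre (0.0601% and 0.0842% of all genes), and 2 rose and 3 fell with vehicle (11.9% and 10.0%). With rapamycin 5 rose and 6 fell in Tsc2 KO mice, where 15.4% of all genes rose and 14.0% fell. In DKO mice none rose and 5 fell with rapamycin, where 2.10% of all genes rose and 3.47% fell. Aldh1l2, a mitochondrial folate enzyme, rose in each cohort (2.77 ± 0.33, adjusted p = 8.67e-05, 2.6 ± 0.46, adjusted p = 0.00371 and 3.2 ± 0.36, adjusted p = 5.37e-06). Atf5, which encodes a related factor, rose in each as well (2.22 ± 0.20, adjusted p = 1.4e-05, 1.82 ± 0.28, adjusted p = 0.00172 and 2.47 ± 0.27, adjusted p = 3.99e-06), and the cationic transporter gene Slc7a3 rose in CaggCreERT2 (4.11 ± 0.60, adjusted p = 0.000371) and vehicle-treated mice (2.86 ± 0.94, adjusted p = 0.0241).

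Among the enzymes that handle one-carbon donors and break down glycine and serine, counts are read against the shares of all genes that fell (13.4%, 6.21% and 18.9%) and rose (15.6%, 7.64% and 19.4%). Of 20 other folate and one-carbon genes 7 fell and 4 rose in CaggCreERT2, 5 fell and none rose in KspCre, and 12 fell and 3 rose with vehicle. Bhmt, which remethylates homocysteine with betaine, fell in each (-4.39 ± 0.46, adjusted p = 3.69e-05, -3.69 ± 0.61, adjusted p = 0.00253 and -7.15 ± 0.77, adjusted p = 3.22e-06), and Gnmt, the glycine methyltransferase, fell in the KspCre cohorts (-1.63 ± 0.40, adjusted p = 0.0201 and -2.06 ± 0.27, adjusted p = 2.05e-05). The histidine-degrading folate enzyme gene Ftcd rose in CaggCreERT2 (1.32 ± 0.35, adjusted p = 0.014). Of the glycine and serine breakdown genes 8 of 11 tested fell in CaggCreERT2, 5 of 11 fell and 1 rose in KspCre, and 9 of 12 fell and 2 rose with vehicle. Dmgdh, the dimethylglycine dehydrogenase, fell in each (-3.47 ± 0.24, adjusted p = 2.98e-06, -2.25 ± 0.28, adjusted p = 0.000556 and -3.9 ± 0.50, adjusted p = 1.73e-05). Sds, the serine dehydratase, rose with vehicle (3.59 ± 1.21, adjusted p = 0.0279). Of 11 proximal tubule genes 9, 8 and 9 fell in the same comparisons, and their part in these lists was not tested. With rapamycin in Tsc2 KO mice 9 of 12 of this list rose and none fell, and 11 of 20 of the folate list rose and 1 fell, where 15.4% of all genes rose and 14.0% fell. Of 13 purine synthesis genes 1 rose and 1 fell in CaggCreERT2, none passed in KspCre, and 4 fell with vehicle, with medians of 0.03, -0.11 and -0.06.

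Stress branches next to ATF4 were counted in the same way, beside the same shares of all genes (15.6% rose and 13.4% fell in CaggCreERT2, 7.64% and 6.21% in KspCre, 19.4% and 18.9% with vehicle). Of 17 ER chaperone and quality control genes, which ATF6 and XBP1 control, 9 rose in CaggCreERT2, none passed the test in KspCre, and 5 rose and 4 fell with vehicle, and the medians were 0.39, -0.01 and 0.07. Sdf2l1 led in the first (1.19 ± 0.18, adjusted p = 0.000554). Of 6 genes for eIF2α kinases and its phosphatases Eif2ak2, the kinase PKR, and Eif2ak3, the kinase PERK, rose in both untreated cohorts (0.37 ± 0.13, adjusted p = 0.0458 and 0.95 ± 0.14, adjusted p = 0.000337 in CaggCreERT2, 0.89 ± 0.18, adjusted p = 0.00682 and 0.42 ± 0.12, adjusted p = 0.0396 in KspCre), and with vehicle (1.03 ± 0.12, adjusted p = 7.97e-06 and 0.59 ± 0.11, adjusted p = 0.000747). Ppp1r15b, a subunit of the eIF2α phosphatase, fell with vehicle (-0.62 ± 0.16, adjusted p = 0.00542).

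**Figure D4:**
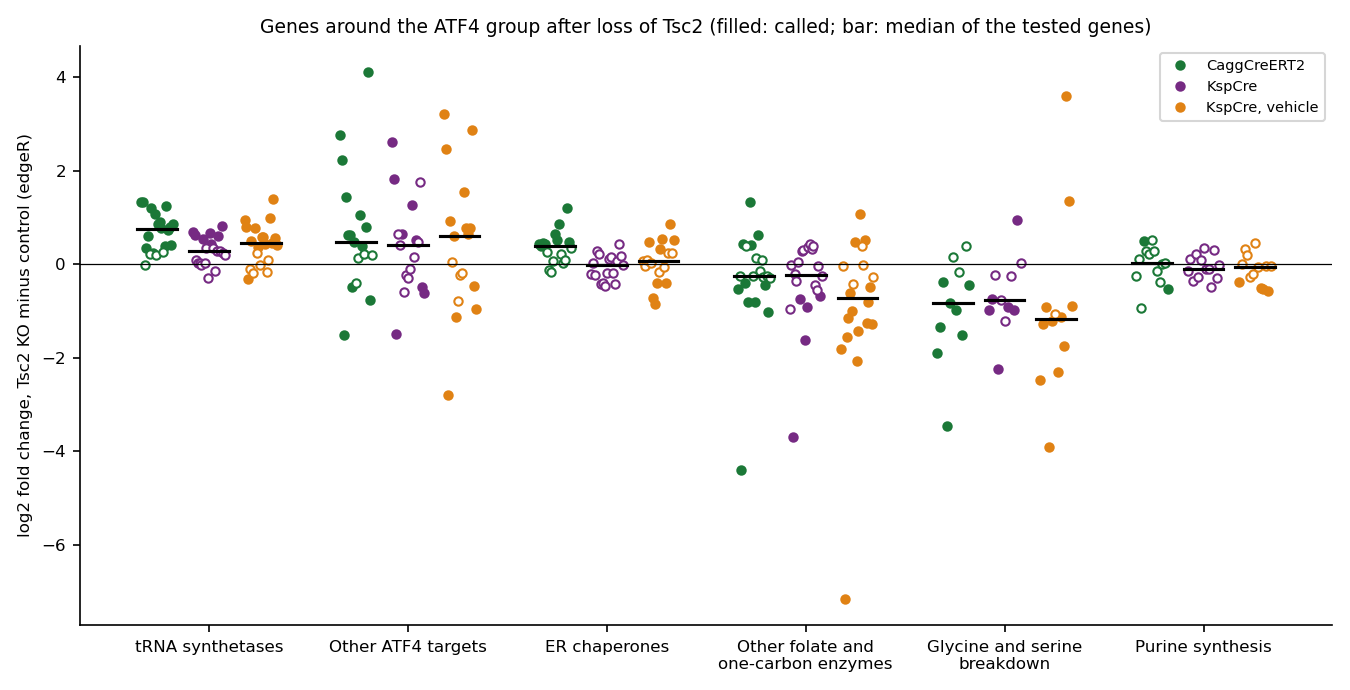
Fitted log2 fold changes of each tested gene, Tsc2 KO against control, in 6 lists around the members, by cohort (colours), with filled points for genes that passed the test and a black bar at the median of the list. tRNA synthetases lie mostly above 0 and glycine and serine breakdown genes mostly below, and purine synthesis genes lie around 0.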

How the data were processed

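Kidney RNA of 42 mice in 14 groups of 3 was analysed. The authors deposited, for each cohort, raw read counts per gene and FPKM values, and the submitters' processing notes name mm10, STAR 2.6.1d, HISAT2 2.0.5, featureCounts 1.5.0-p3 and DESeq2 1.20.0 without their roles. No column of values was without a sample. CaggCreERT2 counts were matched to FPKM columns by their constant ratio given gene length, and groups follow the FPKM names. Counts were tested in edgeR 4.0.16 (R 4.3.3) with filterByExpr, TMM factors and glmQLFTest, all groups of a cohort in a single fit without covariates, and Benjamini-Hochberg adjustment over all genes tested. Errors are the log2 fold change divided by the root of F. On simulated counts for Tsc2 KO against control, with 200 changed genes, the CaggCreERT2 fit recovered 46% at a log2 fold change of 1 and 78% at 2, the KspCre fit 30% and 78%, and the vehicle fit 53% and 73%, with 7.46%, 6.90% and 3.08% of the calls false. Members and lists were chosen with earlier results of these data known. Mthfd2, Atf4 and the members called in the same direction in at least 2 of 3 Tsc2 KO comparisons are given in every mouse, and each list by its counts and up to 2 leading genes. Replicates are separate mice. Alternatives were DESeq2 1.42.0, only the groups compared, RLE factors, no filter, the study's FPKM minimum of 5, a replicate block, Xist as covariate, the count table's names and each library left out.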

Additional observations from a re-analysis of the deposited data

Results flagged for a closer look

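The following members were singled out because a test of the difference between 2 effects, an interaction term in edgeR's quasi-likelihood fit with 3 mice a group, passed at an adjusted p of 0.05. All values are differences of log2 fold changes. In the CaggCreERT2 cohort the effect of losing Tfeb was more negative with than without Tsc2 loss for Aldh18a1 (-1.53) and Mthfd1l (-2.01). Neither call held under the count table's names or with Xist as a covariate.

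The effect of rapamycin was more negative in Tsc2 KO than in control mice for the regulators Trib3 (-4.91), Chac1 (-3.53), Nupr1 (-3.16) and Atf4 (-1.03). The same held for Ddit4 (-1.56) and Sesn2 (-0.975), for Phgdh (-2.17) and Psat1 (-1.53), and for Mthfd2 (-2.75), Aldh18a1 (-2.13) and Gdf15 (-3.24). Among transporters it held for Slc7a5 (-2.07), Slc7a1 (-1.64) and Slc38a2 (-1.05). The effect was more positive in Tsc2 KO mice for Shmt1 (0.819) and Shmt2 (1.17). The call of Sesn2 was lost without any 1 of 5 of the 12 libraries, that of Slc7a1 without any 1 of 4 and with the FPKM minimum, and those of Psat1 and Ddit4 without 3 and 2. With that minimum the call of Chac1 was lost as well.

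Against DKO mice the effect of rapamycin in Tsc2 KO mice was more negative for Trib3 (-2.6), Nupr1 (-3.04), Phgdh (-1.84), Mthfd2 (-1.45) and Aldh18a1 (-1.13). It was more positive for Shmt1 (0.868) and Shmt2 (1.03). These 2 rapamycin tests share the Tsc2 KO mice. The call of Nupr1 against DKO mice was lost without any 1 of 9 of the 12 libraries and under the replicate block, and that of Aldh18a1 without any 1 of 7.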

How the results depend on the processing

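Alternatives were run on the counts and medians of each comparison and on 156 called values of members, of which none changed direction. The other values were not followed. DESeq2, RLE factors and no filter kept all 156 calls. The FPKM minimum, which reuses the same fit and cannot change a direction, lost 29, among them Mthfd1l with Tsc2 loss in each cohort. The count table's names lost 21 and kept 23, and only the groups compared lost 16 and kept 115. The replicate block lost 10 and Xist as covariate 3. Of the left-out fits 174 lost a call and 912 kept it. The median log2 fold change of the members moved by more than the median standard error of the members in 4 cases. In CaggCreERT2 Tfeb KO it was 0.07, and 0.54 under the count table's names. In the CaggCreERT2 interaction it was -0.32, -0.72 with Xist as covariate and -1.17 under the count table's names. In vehicle-treated DKO against controls it was 0.57, and 0.96 without control replicate 2. The counts of members called that moved by more than 1.5 times are these, and their causes were not tested. For CaggCreERT2 DKO against Tsc2 KO (9 calls) the count table's names gave 5 and only the groups compared 4. For DKO against controls the count table's names gave 0 in CaggCreERT2 (15 calls), DESeq2 gave 14 and the FPKM minimum 4 in KspCre (7 calls), and with vehicle (10 calls) only the groups compared and the FPKM minimum each gave 6. Where edgeR called 0, no filter gave 1 in CaggCreERT2 Tfeb KO, DESeq2 and no filter each gave 1 in KspCre DKO against Tsc2 KO, and DESeq2 gave 2 and no filter 1 in rapamycin-treated Tsc2 KO against controls. For vehicle-treated DKO against rapamycin-treated Tsc2 KO (4 calls) DESeq2 gave 12, no filter 10, only the groups compared 0 and the FPKM minimum 2. For the CaggCreERT2 interaction (2 calls) DESeq2 gave 6, no filter 11, the FPKM minimum 1, and Xist as covariate, the count table's names and the replicate block 0. The samples share only a number: same-numbered mice had correlations of deviations from -0.173 to 0.126 in CaggCreERT2, -0.293 to 0.246 in KspCre and -0.361 to 0.358 in the drug cohort, 3 of 12, 6 of 12 and 4 of 18 mice correlated best with their own number, and the replicate block moved no other count of members by more than 1.5 times.

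With each library left out in turn the counts ran, for Tsc2 KO against controls, from 23 to 28 in CaggCreERT2, 8 to 11 in KspCre and 20 to 22 with vehicle. For DKO against Tsc2 KO they ran from 3 to 12, 0 to 0 and 9 to 13, and for DKO against controls from 12 to 14, 3 to 6 and 4 to 9. Rapamycin against vehicle gave 19 to 22 in Tsc2 KO and 3 to 5 in DKO mice, rapamycin-treated Tsc2 KO against controls 0 to 1 (1 without Tsc2 KO replicate 1), and vehicle-treated DKO against rapamycin-treated Tsc2 KO 2 to 5. The interactions gave 0 to 10 in CaggCreERT2, 13 to 17 for rapamycin in Tsc2 KO against controls and 4 to 11 against DKO. Low members such as Slc7a11, Chac1 and Mthfd1l rest on few reads.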
